A study of Mus musculus with 30 samples.

Results

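Among the 22121 gene symbols of the array, 9 genes of the lymphatic vessels of skin are followed here, chosen by symbol: the growth factors Vegfc and Figf, their receptor Flt4, the transcription factor Prox1, the hyaluronan receptors Lyve1 and Stab2, the surface glycoprotein Pdpn, and the secreted proteins Reln and Mmrn1. On the array they are measured by 19 of the 45037 probe sets that are not controls, and each probe set was taken whose symbol is one of these names. Of the 19, 16 passed the filter on low values, among 36029 probe sets tested, with at least 1 for every gene. The other 3, 1 each of Prox1, Reln and Mmrn1, stayed between 2.57 and 3.63 on every array and were not tested. Whole shaved back skin of female 129–C57BL/6 mice aged 8 to 12 weeks was painted 3 times with 50 μM TPA at intervals of 24 h and taken 1, 2, 4 or 6 days after the final application, from WT mice and from mice that lack D6 in all their cells. Control skin of each genotype stands as day 0. The labels call these controls untreated in the title and acetone-treated in the description, and the methods give acetone. Genotype and day make 10 groups, each with 3 arrays from 3 mice, which the labels number as biological replicates. TPA is a phorbol ester that activates protein kinase C and inflames the skin.

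Lymphatic vessels drain fluid and leukocytes from the skin. VEGF-C and VEGF-D, the latter encoded by Figf, bind the receptor tyrosine kinase VEGFR-3, encoded by Flt4, and drive growth of lymphatic endothelium, whose identity depends on PROX1. Podoplanin, LYVE1 and reelin are widely used markers of this endothelium, but podoplanin is also made by keratinocytes and fibroblasts, LYVE1 by some tissue macrophages, and multimerin by platelets as well. D6, encoded by Ccbp2, is a scavenging receptor for inflammatory CC chemokines that lymphatic endothelium carries in skin. All values are log2 RMA intensities, and a difference of 1 is a doubling. RNA was made from whole skin, so fewer cells of a type and less RNA per cell cannot be told apart, and levels of different probe sets were not set against each other.

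The 30 arrays ran from 2.26 to 14.98, with medians between 5.64 and 5.80. In WT control skin the keratinocyte markers Krt5, Krt14, Krt1 and Krt10 lay at 12.18, 12.72, 11.66 and 13.63, and Krt6a and Krt16 at 8.56 and 6.11. Both tested Prox1 probe sets and that of Stab2 lay under the median of every array throughout. The hybridization controls split the arrays into sets of 17 and 13. For the 55 called results between 2 groups, all 106 differences taken within a set had the sign of the pooled one. These results were chosen by calls on the same arrays, so this count does not test the part of the sets. D6-deficient day 6 had no array in the set of 13. The D6-deficient arrays of day 6 differed from each other more than those of any other group (SD of the difference between 2 arrays, 0.43 to 0.55, against 0.25 to 0.39 elsewhere). The 3′ minus 5′ difference of the actin control, a measure of RNA integrity, was 0.67 to 0.84 on WT and 0.89 to 1.14 on D6-deficient day 0 arrays and between 0.34 and 0.65 on all arrays after TPA, so that it moved with every comparison with day 0. So did the skeletal muscle markers Acta1, Ckm and Myh4: 3 of 3 fell after TPA on each day in both genotypes, with a summed linear intensity of 45059 to 50633 on WT and 40427 to 45554 on D6-deficient day 0 arrays against 20865 to 31772 and 12732 to 30414 after TPA. The part of RNA integrity and of muscle content in the results below was not tested. On 1 of the 3 probe sets of Ccbp2, WT arrays lay between 4.15 and 5.76 and D6-deficient arrays between 3.30 and 3.86 without overlap, while the brightest, at 6.69 to 8.54 and 6.59 to 8.09, did not separate the genotypes. The labels do not say which part of the gene the deletion removes.

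Compared with day 0, every lymphatic probe set that was called in WT skin on days 1 and 2 was lower, and on day 4 Pdpn and Figf stood above the controls while Reln, Mmrn1 and Vegfc stood below them. A probe set was called at a limma adjusted p under 0.05 with no threshold on the fold. In WT skin 6 of the 16 probe sets fell on day 1 and 0 rose, where 12.7% of all tested probe sets fell and 11.4% rose. On day 2 the counts were 7 lower and 0 higher (background 15.0% and 11.0%), on day 4 they were 7 lower and 4 higher (21.8% and 17.3%), and on day 6 they were 6 lower and 0 higher (11.9% and 10.2%). The median change of the 16 was −0.40, −0.51, −0.27 and −0.49 at the 4 days, whereas that of all tested probe sets was within 0.01 of 0. In D6-deficient skin 4 fell and 0 rose on day 1 (18.1% and 18.2%), 3 fell and 3 rose on day 2 (20.6% and 17.5%), 3 fell and 5 rose on day 4 (22.4% and 18.8%), and 4 fell and 0 rose on day 6 (15.7% and 16.0%). The medians were −0.36, −0.01, −0.03 and −0.14. The higher calls came from Figf and Pdpn and, in D6-deficient skin, 1 probe set of Flt4. The 4 comparisons of a genotype share the same 3 day 0 arrays. Counts of members at or near the background shares, such as 3 of 16 lower on days 2 and 4 in D6-deficient skin, are not a result about these genes.

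**Figure D1:**
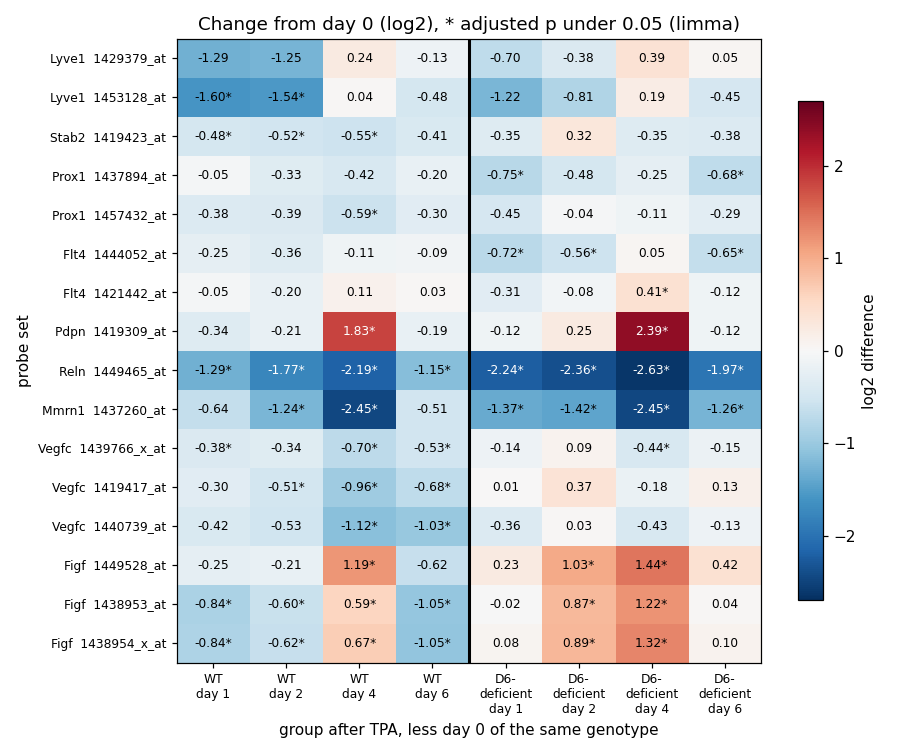
Log2 change from day 0 of the same genotype for the 16 tested probe sets (rows) at days 1, 2, 4 and 6 in WT and D6-deficient skin (columns), with colour from blue (lower) to red (higher) and an asterisk where the limma adjusted p was under 0.05. Reln is blue in every column, Mmrn1 in every column with a change of −2.45 on day 4 in both genotypes, Pdpn has its only asterisks on day 4, in red, and Figf has red asterisks on day 4 in WT skin and on days 2 and 4 in D6-deficient skin.

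The bases before the start of 4 of these genes are shown because these genes carried the changes of day 4, Pdpn and Figf as genes that rose and Reln and Mmrn1 as genes that fell in both genotypes. Each is the 250 bases before the RefSeq start on build GRCm38.p6, written 5′ to 3′ on the strand of the gene, with capitals for motif matches on either strand. The letters searched for AP-1 were TGANTCA. Those for FOX factors were TGTTTAC. Those for SOX factors were ATTGTT. The TATA box was searched as TATAAA. Pdpn is on the minus strand at chr4:143299565-143299814, Figf (Vegfd in RefSeq) on the plus strand at chrX:164373272-164373521, Reln on the minus strand at chr5:22344706-22344955, and Mmrn1 on the plus strand at chr6:60944067-60944316.
Pdpn: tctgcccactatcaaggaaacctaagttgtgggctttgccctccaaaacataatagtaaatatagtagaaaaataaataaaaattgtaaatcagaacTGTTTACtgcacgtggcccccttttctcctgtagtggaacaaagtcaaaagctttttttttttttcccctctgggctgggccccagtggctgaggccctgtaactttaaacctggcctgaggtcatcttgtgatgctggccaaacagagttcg
Figf: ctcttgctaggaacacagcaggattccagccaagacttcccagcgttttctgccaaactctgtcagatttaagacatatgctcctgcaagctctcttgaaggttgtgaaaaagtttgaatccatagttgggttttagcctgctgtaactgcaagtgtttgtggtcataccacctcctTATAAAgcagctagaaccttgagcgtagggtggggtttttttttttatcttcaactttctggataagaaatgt
Reln: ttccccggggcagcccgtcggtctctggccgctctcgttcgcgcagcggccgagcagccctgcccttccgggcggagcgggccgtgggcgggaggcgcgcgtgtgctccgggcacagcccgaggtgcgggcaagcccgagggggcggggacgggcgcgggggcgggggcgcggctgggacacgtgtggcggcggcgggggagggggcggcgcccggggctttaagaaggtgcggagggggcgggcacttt
Mmrn1: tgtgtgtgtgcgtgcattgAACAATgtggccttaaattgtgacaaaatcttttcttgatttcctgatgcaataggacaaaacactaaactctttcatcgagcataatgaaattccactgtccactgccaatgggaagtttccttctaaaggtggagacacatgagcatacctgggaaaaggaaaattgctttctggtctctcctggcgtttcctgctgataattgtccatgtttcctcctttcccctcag
The capitals mark a FOX match 153 bases before the start of Pdpn, a TATA match 73 bases before that of Figf and a SOX match 231 bases before that of Mmrn1, and none of the matches overlap. None of the windows of these genes holds the AP-1 letters, which 6.75% of 32851 windows of this length hold, against 3.17% for FOX, 9.42% for SOX and 12.4% for TATA. The windows held 43.2% G and C bases for Pdpn, 42.4% for Figf, 80% for Reln and 42.4% for Mmrn1, beside a median of 52.4% over all windows. Of the 9 genes, 8 had a window in the RefSeq table, 9 windows in all, and 1 of the others held a match, a TATA match 34 bases before 1 start of Prox1.

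Figf, the gene of the ligand VEGF-D, was highest on day 4 in both genotypes. On its brightest probe set the WT arrays were at 8.22, 8.72 and 8.12 on day 0, 7.83, 8.25 and 8.22 on day 1, 7.79, 8.67 and 7.98 on day 2, 9.83, 9.27 and 9.52 on day 4 and 7.71, 8.16 and 7.33 on day 6. The D6-deficient arrays were at 7.58, 7.59 and 7.32 on day 0, 7.42, 7.75 and 8.02 on day 1, 8.46, 8.47 and 8.66 on day 2, 8.72, 8.97 and 9.13 on day 4 and 8.20, 8.26 and 7.30 on day 6. All day 4 arrays lay above all day 0 arrays of their genotype, and in D6-deficient skin all day 2 arrays did so as well. Figf rose by 1.19 (SE 0.25, adjusted p = 0.000565) on day 4 in WT skin and, in D6-deficient skin, by 1.03 (SE 0.25, adjusted p = 0.00204) on day 2 and 1.44 (SE 0.25, adjusted p = 5.71e-05) on day 4. The other 2 probe sets rose on the same days, by 0.59 and 0.67 on day 4 in WT skin (adjusted p = 0.0268 and 0.0235), by 0.87 and 0.89 on day 2 and by 1.22 and 1.32 on day 4 in D6-deficient skin. In WT skin these 2 probe sets also fell on day 1 (−0.84 and −0.84, adjusted p = 0.0041 and 0.00928), day 2 (−0.60 and −0.62, adjusted p = 0.0327 and 0.0483) and day 6 (both −1.05, adjusted p = 0.000798 and 0.00199), when the brightest was at −0.25, −0.21 and −0.62 (adjusted p = 0.527, 0.587 and 0.0801). The probe sets thus did not all show a fall in WT skin, although the day 6 change of the brightest was called without WT day 6 replicate 2 or D6-deficient day 6 replicate 3 (adjusted p = 0.0464 and 0.045). Among the calls in WT skin, those of the first of these 2 were lost on day 2 without WT day 0 replicate 1 or 3 or WT day 2 replicate 1 or 3 (adjusted p from 0.0697 to 0.157) and on day 4 without WT day 0 replicate 2 or 3 or WT day 4 replicate 1 or 3 (adjusted p from 0.0613 to 0.0865). Those of the second, whose suffix marks probes that can match other transcripts, were lost on day 1 without WT day 1 replicate 1 (adjusted p = 0.0561), on day 2 without 20 of the 30 arrays left out 1 at a time (adjusted p from 0.0523 to 0.221), the others being WT day 1 replicates 1 and 3, WT day 2 replicate 2, WT day 4 replicates 1 and 2, WT day 6 replicates 2 and 3 and D6-deficient day 6 replicates 1, 2 and 3, and on day 4 without WT day 0 replicate 2 or 3 or WT day 4 replicate 1 or 3 (adjusted p from 0.0585 to 0.105). Both day 2 calls were also lost with the mean of the gene's probe sets (adjusted p = 0.109) and with only the 6 arrays of the comparison (adjusted p = 0.0682 and 0.0909).

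Vegfc, the gene of the ligand VEGF-C, fell in WT skin and stayed lower to day 6. On the probe set 1419417_at the WT arrays were at 7.20, 7.02 and 7.10 on day 0, 6.71, 6.74 and 6.96 on day 1, 6.46, 6.62 and 6.71 on day 2, 6.24, 6.19 and 5.99 on day 4 and 6.65, 6.25 and 6.38 on day 6. The D6-deficient arrays were at 6.98, 6.79 and 6.97 on day 0, 6.42, 6.97 and 7.36 on day 1, 7.23, 7.20 and 7.42 on day 2, 6.61, 6.74 and 6.84 on day 4 and 6.76, 7.19 and 7.19 on day 6. On this probe set, the only 1 of the 3 called between the genotypes on day 2, every WT array after TPA lay under every WT day 0 array. Its D6-deficient arrays after TPA lay on both sides of their controls. In WT skin this probe set fell, with log2 changes of −0.51 (SE 0.16, adjusted p = 0.0243) on day 2, −0.96 (SE 0.16, adjusted p = 5.47e-05) on day 4 and −0.68 (SE 0.16, adjusted p = 0.00435) on day 6, and in D6-deficient skin none of its 4 changes was called (−0.18 to 0.37). The call of day 2 was lost without WT day 0 replicate 1 or 3 or WT day 2 replicate 1 or 2 (adjusted p from 0.0545 to 0.0935). A second probe set, 1440739_at, fell in WT skin, with changes of −1.12 (SE 0.21, adjusted p = 0.000153) on day 4 and −1.03 (SE 0.21, adjusted p = 0.00107) on day 6. The brightest, 1439766_x_at, which has the suffix for probes that can match other transcripts, fell in WT skin on day 1 (−0.38, adjusted p = 0.0388), day 4 (−0.70, adjusted p = 0.000198) and day 6 (−0.53, adjusted p = 0.00619), and was the only 1 of the 3 to fall in D6-deficient skin, on day 4 (−0.44, adjusted p = 0.0104). On the brightest, WT day 2 replicate 3, at 7.62, lay among the WT day 0 arrays at 7.66, 7.43 and 7.54. Its call of day 1 was lost without WT day 0 replicate 1 or 3 or WT day 1 replicate 2 or 3 (adjusted p from 0.0768 to 0.149), and also with each array centred on its median (adjusted p = 0.067), and with the mean of the 3 probe sets neither that call nor the one in D6-deficient skin remained (adjusted p = 0.0648 and 0.0568).

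**Figure D2:**
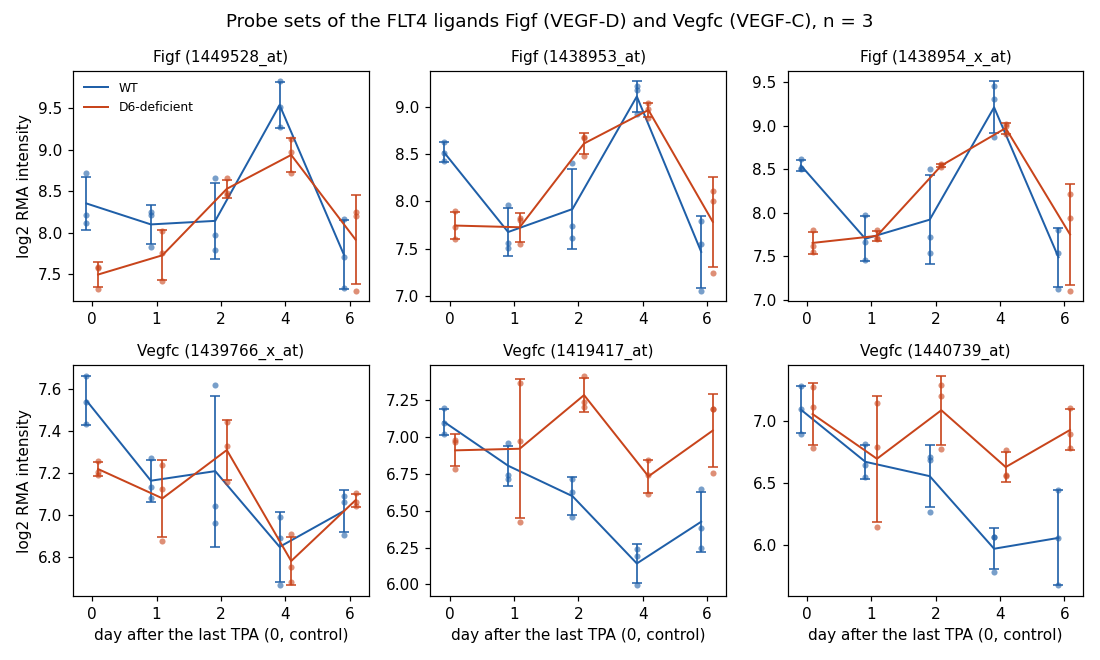
Log2 RMA intensity of the 3 probe sets of Figf (upper row) and the 3 of Vegfc (lower row) against the day after the last TPA, 0 being the control; points are arrays, lines join the means and bars are SD over 3 arrays, in blue for WT and red for D6-deficient skin, with the days drawn at equal steps. Figf peaks on day 4 on all 3 probe sets, and on 1419417_at the WT arrays of day 2 lie between 6.46 and 6.71, under the D6-deficient ones between 7.20 and 7.42.

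Flt4, the gene of the receptor VEGFR-3, fell on 1 probe set in D6-deficient skin on 3 of the 4 days, and none of its changes in WT skin was called. On the brighter probe set the WT arrays were at 7.62, 7.82 and 7.96 on day 0, 7.47, 7.68 and 7.51 on day 1, 7.46, 7.32 and 7.56 on day 2, 7.94, 7.68 and 7.47 on day 4 and 8.22, 7.29 and 7.63 on day 6. In D6-deficient skin they were at 7.77, 7.59 and 7.62 on day 0, 6.73, 6.97 and 7.12 on day 1, 6.95, 7.13 and 7.24 on day 2, 8.00, 7.45 and 7.68 on day 4 and 7.10, 6.75 and 7.17 on day 6. The D6-deficient arrays of days 1, 2 and 6 all lay under those of day 0, and those of day 4 overlapped them. Flt4 fell, with changes of −0.72 (SE 0.18, adjusted p = 0.00301) on day 1, −0.56 (SE 0.18, adjusted p = 0.0168) on day 2 and −0.65 (SE 0.18, adjusted p = 0.00747) on day 6 in D6-deficient skin. The call of day 2 was lost without D6-deficient day 0 replicate 1 or D6-deficient day 2 replicate 1 (adjusted p from 0.0637 to 0.0721), and that of day 6 without D6-deficient day 6 replicate 2 (adjusted p = 0.055). In WT skin the changes of this probe set ran from −0.36 to −0.09. The second probe set rose in D6-deficient skin on day 4, by 0.41 (SE 0.15, adjusted p = 0.0257), from 5.52, 5.58 and 5.47 to 6.08, 5.60 and 6.12, a call lost without D6-deficient day 0 replicate 1 or 3 or D6-deficient day 4 replicate 1 or 3 (adjusted p from 0.0575 to 0.13), and was otherwise not called, so the probe sets of Flt4 disagreed. With their mean the calls of day 2 and day 4 were lost (adjusted p = 0.0934 and 0.222), the latter also with only the 6 arrays of the comparison (adjusted p = 0.0698).

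Prox1, the transcription factor of lymphatic endothelial identity, was measured low on the scale. On the brightest of its 3 probe sets the WT arrays were at 4.60, 4.41 and 4.43 on day 0, 4.32, 4.71 and 4.25 on day 1, 4.21, 3.68 and 4.57 on day 2, 3.91, 4.18 and 4.08 on day 4 and 4.57, 4.00 and 4.27 on day 6. In D6-deficient skin the values were 4.61, 3.84 and 4.80 on day 0, 3.44, 3.77 and 3.79 on day 1, 4.00, 3.98 and 3.82 on day 2, 4.54, 3.85 and 4.11 on day 4 and 3.82, 3.42 and 3.96 on day 6. The day 1 arrays lay under all day 0 arrays in D6-deficient skin, whereas those of day 6 overlapped them. Prox1 fell, with changes of −0.75 (SE 0.23, adjusted p = 0.012) on day 1 and −0.68 (SE 0.23, adjusted p = 0.0246) on day 6 in D6-deficient skin, calls that were lost without D6-deficient day 0 replicate 1 or 3 or D6-deficient day 1 replicate 1 (adjusted p from 0.0559 to 0.0892) and without D6-deficient day 0 replicate 1 or 3 or D6-deficient day 6 replicate 2 (adjusted p from 0.0961 to 0.151) respectively. On the second probe set it fell by 0.59 (SE 0.21, adjusted p = 0.0317) on day 4 in WT skin, from 4.22, 4.12 and 4.68 to 3.86, 3.84 and 3.55, a call lost without WT day 0 replicate 3 or WT day 4 replicate 3 (adjusted p from 0.131 to 0.174). The call of day 6 was also lost with the mean of the tested probe sets (adjusted p = 0.0582) and with only the 6 arrays of the comparison (adjusted p = 0.122). No day and genotype was called on both probe sets.

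Lyve1, the hyaluronan receptor of lymphatic capillaries, has 2 probe sets, on both of which the groups of arrays were widely spread. On the brighter probe set the WT arrays were at 10.76, 9.61 and 10.07 on day 0, 8.56, 9.02 and 8.97 on day 1, 9.33, 8.85 and 8.51 on day 2, 10.33, 10.44 and 10.40 on day 4 and 10.77, 10.17 and 9.10 on day 6. Those of D6-deficient skin were at 8.77, 10.22 and 7.98 on day 0, 7.40, 9.10 and 8.38 on day 1, 9.23, 8.28 and 8.31 on day 2, 9.30, 9.20 and 9.63 on day 4 and 10.97, 8.27 and 7.88 on day 6. In WT skin the arrays of days 1 and 2 lay under all day 0 arrays and those of day 4 lay among them, and in D6-deficient skin the arrays of day 0 and of day 6 each spanned more than 2 units. The second probe set fell in WT skin, with changes of −1.60 (SE 0.55, adjusted p = 0.0364) on day 1 and −1.54 (SE 0.55, adjusted p = 0.0409) on day 2, whereas the brighter was at −1.29 and −1.25 (adjusted p = 0.125 and 0.133). These calls were lost without WT day 0 replicate 1 or 3 or WT day 1 replicate 1 or 3 (adjusted p from 0.061 to 0.155) for day 1 and without WT day 0 replicate 1 or 3 or WT day 2 replicate 2 or 3 (adjusted p from 0.0693 to 0.16) for day 2, and without D6-deficient day 6 replicate 1 the brighter probe set was called on both days as well (adjusted p = 0.0446 and 0.0495), as it was when only the 6 arrays of each comparison were fitted (adjusted p = 0.0156 and 0.0216). With the mean of both probe sets Lyve1 was called on neither day (adjusted p = 0.0685 and 0.0744). No change of Lyve1 was called in D6-deficient skin, where the differences ran from −1.22 to 0.39. Of 10 macrophage markers, 5 fell and 0 rose on day 1 in WT skin, with a sum of 43222 to 49890 on day 0 and 30067 to 33568 on day 1. On day 2, when the Lyve1 values were as low, 2 fell and 1 rose and the sum was 38598 to 42544. Of all tested probe sets 12.7% fell and 11.4% rose on day 1 in WT skin, and 15.0% and 11.0% on day 2. The part of the macrophage markers in the Lyve1 result was not tested.

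Stab2, a scavenger receptor for hyaluronan best known from sinusoidal endothelium, has 1 probe set, which lay low on the scale. The WT arrays were at 4.84, 5.19 and 5.0 on day 0, 4.62, 4.41 and 4.55 on day 1, 4.39, 4.39 and 4.70 on day 2, 4.59, 4.34 and 4.44 on day 4 and 4.72, 4.52 and 4.56 on day 6. In D6-deficient skin they were at 4.78, 4.83 and 4.84 on day 0, 4.46, 4.24 and 4.68 on day 1, 5.07, 5.07 and 5.25 on day 2, 4.14, 4.69 and 4.56 on day 4 and 4.33, 4.08 and 4.91 on day 6. Every WT array after TPA lay under every WT control, and the highest 3 D6-deficient arrays were those of day 2. Stab2 fell in WT skin, with changes of −0.48 (SE 0.16, adjusted p = 0.0335) on day 1, −0.52 (SE 0.16, adjusted p = 0.0215) on day 2 and −0.55 (SE 0.16, adjusted p = 0.00947) on day 4. These calls were lost without WT day 0 replicate 2 or 3 or WT day 1 replicate 1, 2 or 3 (adjusted p from 0.0532 to 0.137) for day 1, without WT day 0 replicate 2 or WT day 2 replicate 1 or 2 (adjusted p from 0.0755 to 0.0976) for day 2 and without WT day 0 replicate 2 (adjusted p = 0.0527) for day 4, and that of day 1 also with each array centred on its median (adjusted p = 0.0611). In D6-deficient skin no change was called, day 2 being at 0.32 (adjusted p = 0.136).

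Pdpn, the mucin-type glycoprotein podoplanin, rose on day 4 and on no other day. The WT arrays were at 10.13, 9.97 and 10.08 on day 0, 9.55, 9.76 and 9.84 on day 1, 9.74, 9.73 and 10.10 on day 2, 11.57, 11.49 and 12.60 on day 4 and 9.60, 9.68 and 10.33 on day 6. Those of D6-deficient skin were at 9.63, 9.75 and 9.75 on day 0, 10.11, 9.44 and 9.23 on day 1, 10.35, 9.68 and 9.85 on day 2, 11.96, 12.16 and 12.18 on day 4 and 9.71, 9.42 and 9.65 on day 6. The 6 day 4 arrays lay above the other 24, and all groups of the other days overlapped their neighbours in the order of the means. Pdpn rose 3.56-fold in WT skin (1.83, SE 0.24, adjusted p = 2.24e-06) and 5.24-fold in D6-deficient skin (2.39, SE 0.24, adjusted p = 3.2e-08). At the other days the changes ran from −0.34 to 0.25, none called. On day 4 all 5 neutrophil markers rose in both genotypes, as did 2 of 4 platelet markers in WT and 3 of 4 in D6-deficient skin, where the sum of the platelet markers was 7170 to 11216 and 7859 to 9671 beside 2352 to 4218 and 1738 to 2808 on day 0, and of 6 keratinocyte markers 3 rose and 2 fell in WT and 2 rose and 3 fell in D6-deficient skin. Of all tested probe sets 17.3% rose and 21.8% fell on day 4 in WT skin, and 18.8% and 22.4% in D6-deficient skin. The part of these markers in the Pdpn result was not tested.

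Of the 9 genes, Reln and Mmrn1 had the largest falls from day 0 on day 4. Reln encodes reelin, a secreted glycoprotein that collecting lymphatic vessels make. The WT arrays were at 9.42, 9.43 and 9.73 on day 0, 7.97, 8.56 and 8.18 on day 1, 8.08, 7.40 and 7.81 on day 2, 7.38, 7.77 and 6.87 on day 4 and 8.98, 7.72 and 8.44 on day 6. The D6-deficient arrays were at 9.46, 9.12 and 9.32 on day 0, 6.81, 6.81 and 7.58 on day 1, 6.85, 6.96 and 6.99 on day 2, 6.92, 6.33 and 6.77 on day 4 and 7.31, 6.49 and 8.18 on day 6. All 24 arrays after TPA lay under all 6 control arrays. Reln fell on every day, with changes of −1.29 (SE 0.33, adjusted p = 0.00551) on day 1, −1.77 (SE 0.33, adjusted p = 0.000291) on day 2, −2.19 (SE 0.33, adjusted p = 1.12e-05) on day 4 and −1.15 (SE 0.33, adjusted p = 0.0138) on day 6 in WT skin, and of −2.24 (SE 0.33, adjusted p = 1.52e-05), −2.36 (SE 0.33, adjusted p = 4.36e-06), −2.63 (SE 0.33, adjusted p = 7.53e-07) and −1.97 (SE 0.33, adjusted p = 8.68e-05) in D6-deficient skin. At day 4 that is 4.56-fold and 6.18-fold. The call of day 6 in WT skin was lost without WT day 0 replicate 3 or WT day 6 replicate 2 (adjusted p from 0.0515 to 0.129).

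Mmrn1 encodes multimerin, a large soluble protein of platelets and endothelium. The WT arrays were at 9.19, 8.87 and 9.05 on day 0, 8.33, 8.59 and 8.26 on day 1, 7.98, 7.25 and 8.15 on day 2, 6.46, 7.13 and 6.16 on day 4 and 9.08, 8.02 and 8.49 on day 6. In D6-deficient skin the values were 8.77, 8.93 and 8.95 on day 0, 7.25, 7.46 and 7.83 on day 1, 7.39, 7.73 and 7.26 on day 2, 6.92, 5.75 and 6.61 on day 4 and 7.71, 6.89 and 8.26 on day 6. Day 4 had the lowest mean in both genotypes, and of the days after TPA only WT day 6 overlapped its controls. Mmrn1 fell, with changes of −1.24 (SE 0.32, adjusted p = 0.00569) on day 2 and −2.45 (SE 0.32, adjusted p = 2.06e-06) on day 4 in WT skin, and of −1.37 (SE 0.32, adjusted p = 0.00184), −1.42 (SE 0.32, adjusted p = 0.0011), −2.45 (SE 0.32, adjusted p = 1.5e-06) and −1.26 (SE 0.32, adjusted p = 0.00426) at days 1, 2, 4 and 6 in D6-deficient skin. At day 4 the fall was 5.48-fold in WT and 5.48-fold in D6-deficient skin. On days 1 and 6 in WT skin the changes were −0.64 and −0.51 (adjusted p = 0.158 and 0.285), and the former was called when only the 6 arrays of that comparison were fitted (adjusted p = 0.0139). The call of day 2 in WT skin was lost without WT day 2 replicate 2 (adjusted p = 0.0514). Of the 4 platelet markers, 2 rose and 0 fell on day 4 in WT skin (background 17.3% and 21.8%). In D6-deficient skin 3 rose and 0 fell (18.8% and 22.4%). The part of the platelet markers in the Mmrn1 result was not tested.

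**Figure D3:**
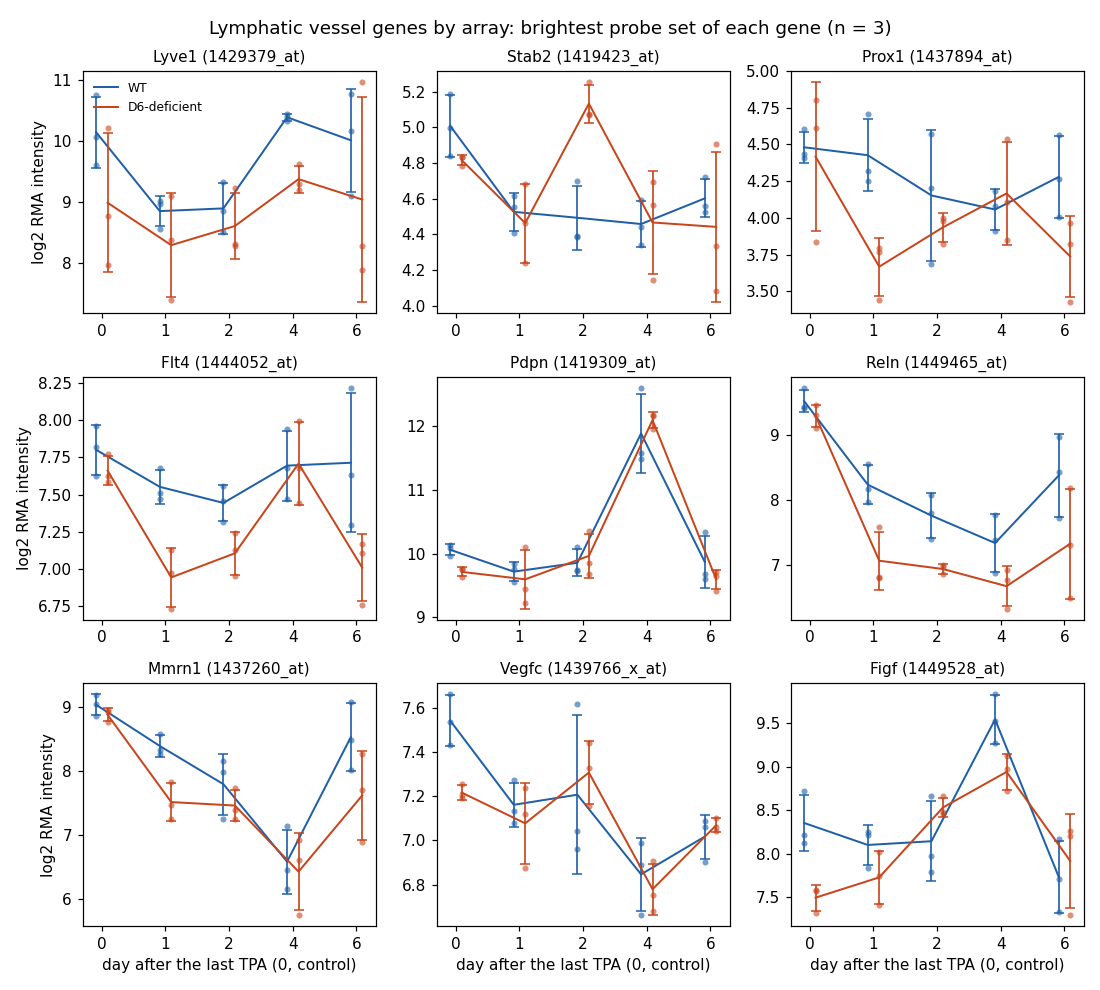
Log2 RMA intensity of the brightest probe set of each of the 9 genes against the day after the last TPA, 0 being the control; points are arrays, lines join the means and bars are SD over 3 arrays, in blue for WT and red for D6-deficient skin, with the days drawn at equal steps. Pdpn stands out on day 4 at 11.49 to 12.60, Reln and Mmrn1 fall after day 0, and Lyve1 has wide bars, with D6-deficient day 6 arrays from 7.88 to 10.97.

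In the order of the 10 group means, most neighbouring groups overlapped. For Lyve1 and Prox1 each of the 9 pairs of neighbours overlapped, from WT day 4 at 10.39 ± 0.05 to D6-deficient day 1 at 8.29 ± 0.85 for Lyve1 (mean ± SD, n = 3). For Pdpn the order was D6-deficient day 4 (12.10 ± 0.12), WT day 4 (11.89 ± 0.62) and then WT day 0 (10.06 ± 0.09), with 1 gap, between the last 2 of these. For Reln it was WT day 0 (9.53 ± 0.17), D6-deficient day 0 (9.30 ± 0.17) and WT day 6 (8.38 ± 0.63), with 1 gap after D6-deficient day 0, and D6-deficient day 4 was last (6.67 ± 0.31). On their brightest probe sets Mmrn1 had 2 gaps, Flt4 had 1, Stab2 and Figf had 2 each and Vegfc had 0. Other probe sets differed, with 2 gaps for 1419417_at of Vegfc and 0 for 1421442_at of Flt4. Gaps were not counted over all tested probe sets, so these numbers only describe the order. For Reln and Pdpn the gaps were those between control skin and skin after TPA and between day 4 and the other days.

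Comparing the genotypes on the same day, which asks whether lack of D6 goes with another level of these genes, limma called 1 of the 16 probe sets on day 0, 0 on day 1, 2 on day 2, 0 on day 4 and 0 on day 6. Over all tested probe sets 1.57%, 0.0555%, 4.45%, 0.513% and 0.125% were called at these days. At an unadjusted p under 0.05 the members counted 4, 6, 6, 3 and 6, and the methods' t-test after Benjamini-Hochberg adjustment called 0 at each day. The medians of the 16 were −0.28, −0.39, 0.04, −0.03 and −0.29, and those of all tested probe sets within 0.02 of 0. On day 0 the called probe set was 1438954_x_at of Figf, with D6-deficient arrays at 7.61, 7.80 and 7.54 under WT arrays at 8.61, 8.50 and 8.51, a difference of −0.89 (SE 0.23, adjusted p = 0.0482). The other 2 probe sets of Figf were at −0.86 and −0.78 (adjusted p = 0.0842 and 0.055), not called. The call of day 0 was lost without 21 of the 30 arrays left out 1 at a time (adjusted p from 0.0503 to 0.161), the others being WT day 2 replicates 1 and 2, WT day 4 replicate 2, WT day 6 replicates 2 and 3, D6-deficient day 4 replicate 1 and D6-deficient day 6 replicates 1, 2 and 3. It was also lost without the filter on low values, with a replicate block and with the hybridization sets as a covariate (adjusted p = 0.0546, 0.0552 and 0.0557). On day 0, 3 of 10 macrophage markers were lower and 0 higher in D6-deficient skin, at a median of −0.47. Of 6 keratinocyte markers 3 were higher and 0 lower, where 1.57% of all tested probe sets were called in either direction. The part of these markers in the Figf result was not tested.

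On day 2 Vegfc and Stab2 were higher in D6-deficient skin. For Vegfc on 1419417_at, the D6-deficient arrays at 7.23, 7.20 and 7.42 lay above the WT arrays at 6.46, 6.62 and 6.71, a difference of 0.69 (SE 0.16, adjusted p = 0.0131), a call lost without WT day 2 replicate 1 or D6-deficient day 2 replicate 3 (adjusted p from 0.0742 to 0.0788). With the mean of the gene's 3 probe sets the difference was 0.44 (adjusted p = 0.0799), not called. The other probe sets of Vegfc differed by 0.53 and 0.10 (adjusted p = 0.183 and 0.805). For Stab2, the D6-deficient arrays at 5.07, 5.07 and 5.25 lay above the WT arrays at 4.39, 4.39 and 4.70, a difference of 0.64 (SE 0.16, adjusted p = 0.0214), a call lost without WT day 2 replicate 1 or 2 or D6-deficient day 2 replicate 2 or 3 (adjusted p from 0.0593 to 0.102). Of 10 macrophage markers, 3 were higher in D6-deficient skin on day 2, with a sum of 49518 to 53956 beside 38598 to 42544 in WT skin. So were 3 of 5 neutrophil markers, where 4.45% of all tested probe sets were called in either direction. The part of these markers in the Vegfc and Stab2 results was not tested. On day 4, when Pdpn had risen in both genotypes, the difference in Pdpn was 0.21 with a 95% interval from −0.29 to 0.71, not called.

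Relative to day 0, that is, comparing the change of D6-deficient skin with the change of WT skin, limma called 5 of the 16 probe sets on day 2, all higher in D6-deficient skin, that is 31.25% against 5.40% of all tested probe sets. They were the 3 of Figf (1.24 with SE 0.36 and adjusted p = 0.0392 for the brightest, 1.47 with SE 0.29 and adjusted p = 0.00312, and 1.51 with SE 0.33 and adjusted p = 0.00582 for the others), Stab2 (0.83, SE 0.23, adjusted p = 0.0337) and Vegfc on 1419417_at (0.88, SE 0.23, adjusted p = 0.0243). On days 1, 4 and 6 limma called 0 of the 16, against 0.0194%, 0.608% and 0.0250% of all tested, and 3, 3 and 6 had an unadjusted p under 0.05. The methods' t-test after adjustment called 0 on these days and 3 on day 2. It subtracted the day 0 means as fixed values and so left out their error, which limma includes. For Figf both parts entered, since D6-deficient skin was at −0.86, −0.78 and −0.89 against WT on day 0 and at 0.39, 0.69 and 0.62 on day 2. The call of the brightest probe set of Figf was lost without WT day 0 replicate 1 or 2, WT day 2 replicate 1 or 3, D6-deficient day 0 replicate 1, 2 or 3 or D6-deficient day 2 replicate 1, 2 or 3 (adjusted p from 0.0514 to 0.123). That of Stab2 was lost without WT day 0 replicate 2 or 3, WT day 2 replicate 1 or 2, D6-deficient day 0 replicate 1, 2 or 3 or D6-deficient day 2 replicate 2 or 3 (adjusted p from 0.0534 to 0.0971), and without WT day 0 replicate 1, WT day 2 replicate 1, D6-deficient day 0 replicate 2 or D6-deficient day 2 replicate 3 (adjusted p from 0.0579 to 0.0748) so was that of Vegfc, which with the mean of its probe sets was at 0.62 (adjusted p = 0.0698). Those of the other 2 probe sets of Figf stayed without each of the 30 arrays in turn. On the same contrast 5 of 10 macrophage markers were higher and 0 lower, and their part was not tested.

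Over all days, taking the mean difference of the 5 days, Reln, Mmrn1 and Flt4 were lower and Vegfc was higher in D6-deficient skin. These were 5 of the 16 probe sets, 3 lower and 2 higher, or 31.25% against 5.52% of all tested probe sets, and 11 of the 16 had an unadjusted p under 0.05, while the methods' t-test after adjustment called 0. Reln differed by −0.79 (SE 0.15, adjusted p = 0.00138), with the days at −0.23, −1.17, −0.82, −0.67 and −1.05, so that all 5 were below 0. Mmrn1 differed by −0.49 (SE 0.14, adjusted p = 0.0473), a call lost without 23 of the 30 arrays left out 1 at a time (adjusted p from 0.0518 to 0.0891), the others being WT day 2 replicate 2, WT day 4 replicate 3, WT day 6 replicate 2, D6-deficient day 1 replicate 3, D6-deficient day 2 replicate 2, D6-deficient day 4 replicate 1 and D6-deficient day 6 replicate 3. It was also lost without the filter on low values and with each array centred on its median (adjusted p = 0.0534 and 0.0553). Flt4 on its brighter probe set differed by −0.36 (SE 0.08, adjusted p = 0.00781), and on the other by −0.14 (adjusted p = 0.231). Vegfc differed by 0.36 (SE 0.07, adjusted p = 0.00303) on 1419417_at and 0.41 (SE 0.09, adjusted p = 0.00843) on 1440739_at, but by −0.07 (adjusted p = 0.616) on the brightest, so its probe sets disagreed. Lyve1 was at −0.80 and −0.76 (adjusted p = 0.0874 and 0.0756), not called, although without D6-deficient day 6 replicate 1, which stood at 10.97 beside 8.27 and 7.88, the brighter probe set was at −0.99 (adjusted p = 0.00546), and without D6-deficient day 0 replicate 2 it was called too (adjusted p = 0.0358). The 3 muscle markers were also lower over all days, at a median of −0.47, and their part in the differences of Reln, Mmrn1 and Flt4 was not tested. Prox1 was at −0.29 and −0.26 (adjusted p = 0.0968 and 0.125), and Pdpn at −0.09 with a 95% interval from −0.31 to 0.14.

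**Figure D4:**
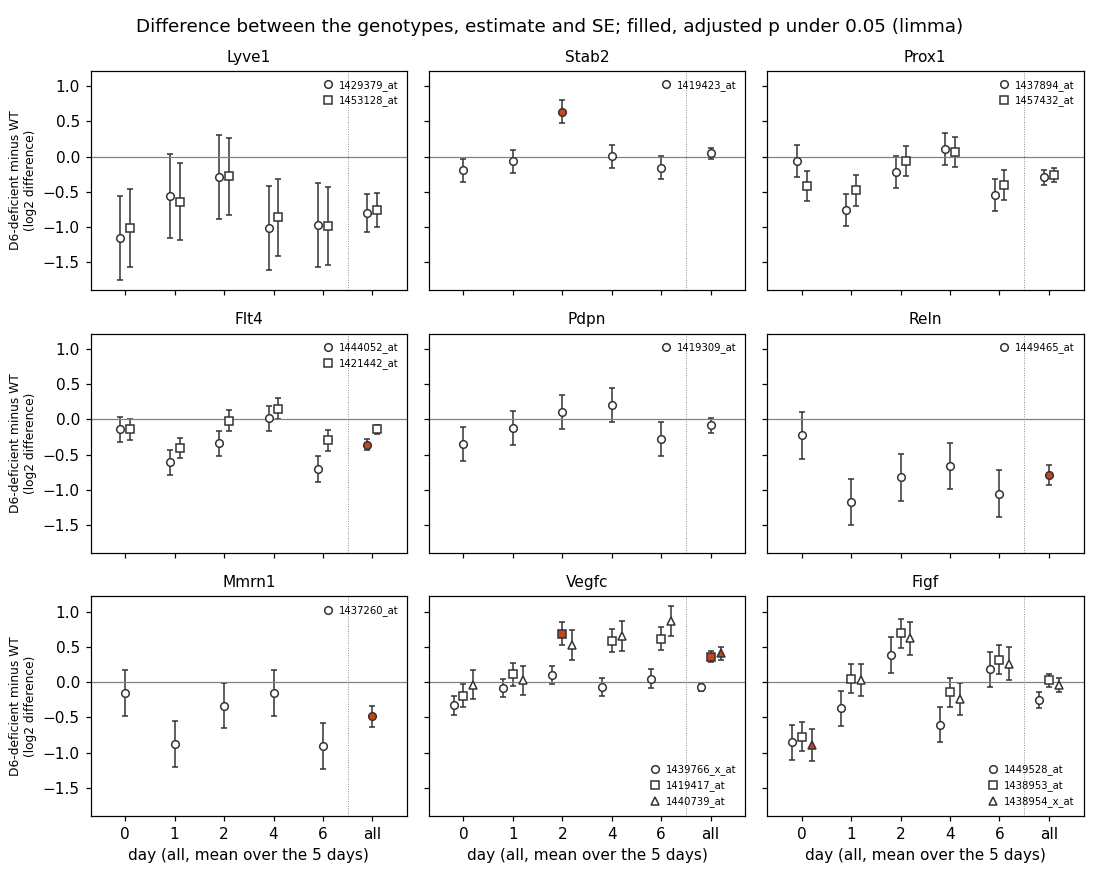
Log2 difference between D6-deficient and WT skin (D6-deficient minus WT) on each day and as the mean over the 5 days (all), for every tested probe set of the 9 genes; symbols are the limma estimates, bars the SE, and filled symbols have an adjusted p under 0.05. Reln lies below 0 on all 5 days and at −0.79 over all days, and on days 1 to 6 the Vegfc probe sets 1419417_at and 1440739_at lie above 0.

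The genes whose pattern over the 30 arrays was most like each member were found by Pearson's r, given as a description since the arrays share groups, treatment and normalization. Reln was most like Fxyd1 (r = 0.97), Coq9 (0.95) and Cisd1 (0.94), and Mmrn1 most like Gpm6a (0.96), Nr3c1 (0.94) and Cilp (0.94). Pdpn was most like Ppbp (0.94), a chemokine gene of platelets, Fgf23 (0.94) and Csf3 (0.94), which encodes the neutrophil growth factor G-CSF, with Spearman's rho of 0.36, 0.57 and 0.58. Figf was most like Lgmn (0.88), Apbb1ip (0.88) and Dfna5 (0.87), and Vegfc, on its brightest probe set, like Socs6 (0.84), Klf12 (0.83) and Hexa (0.82). Flt4 was most like Heatr5a (0.86), Foxc2 (0.83), a transcription factor of lymphatic valves, and Cds2 (0.82). Among the genes most like Prox1 were Flt4 (0.75) and Lrrc39 (0.74). Lyve1 was most like Dab2 (0.78), Csf1 (0.78), the gene of the macrophage growth factor M-CSF, and Timd4 (0.77), a phosphatidylserine receptor of macrophages, and Stab2 was most like Ifi203 (0.79), Npc2 (0.77) and Pir (0.75). Among the members themselves, r over the 30 arrays was 0.90 for Reln and Mmrn1, 0.75 for Prox1 and Flt4 and 0.72 for Pdpn and Figf, but 0.05 for Lyve1 and Mmrn1 and −0.68 for Pdpn and Mmrn1, so the 9 genes did not follow 1 common pattern.

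A wider list has 28 other gene symbols of lymphatic and vascular growth, Ccbp2 among them. A probe set that several of these symbols share was counted under 1, so a symbol not counted need not be missing from the array. By this count 25 are on the array, and 52 of their 57 probe sets, of 24 symbols, were tested. In WT skin 5 rose and 11 fell on day 1 (background 11.4% and 12.7%), 4 and 13 on day 2 (11.0% and 15.0%), 10 and 13 on day 4 (17.3% and 21.8%), and 4 and 8 on day 6 (10.2% and 11.9%). In D6-deficient skin 6 rose and 18 fell on day 1 (18.2% and 18.1%), 8 and 10 on day 2 (17.5% and 20.6%), 18 and 5 on day 4 (18.8% and 22.4%), and 3 and 17 on day 6 (16.0% and 15.7%). Several of these shares of the 52, such as those that rose on days 1 and 4 in WT skin, lay near the background. Ccl21a was measured on a probe set that the near-identical Ccl21 genes share, genes of the chemokine by which lymphatic vessels attract dendritic cells. This probe set fell on day 4, as Reln and Mmrn1 did, with changes of −1.79 (SE 0.23, adjusted p = 1.61e-06) in WT and −2.27 (SE 0.23, adjusted p = 3.35e-08) in D6-deficient skin. Flt1, the VEGF receptor that binds placental growth factor, rose on day 4 by 1.60 (SE 0.16, adjusted p = 3.33e-08) in WT and 1.91 (SE 0.16, adjusted p = 1.52e-09) in D6-deficient skin on 1 of its 4 probe sets. On the other 3 it was at 0.37, 0.52 and 0.34 in WT skin (adjusted p = 0.0841, 0.0362 and 0.221) and at 0.81, 0.84 and 0.79 in D6-deficient skin (adjusted p = 0.000443, 0.00118 and 0.00437). Emilin1, a matrix protein that anchors lymphatic vessels, rose in WT and D6-deficient skin by 1.17 and 1.46 on 1 probe set and by 1.14 and 1.16 on the other. The integrin gene Itga9 rose in both genotypes on all 3 probe sets, most on 1 of them, by 1.16 (SE 0.16, adjusted p = 3.26e-06) in WT and 1.25 (SE 0.16, adjusted p = 8.8e-07) in D6-deficient skin, and Angpt2 rose by 0.68 (SE 0.16, adjusted p = 0.00111) and 1.50 (SE 0.16, adjusted p = 4.2e-08). Cd36 was at −1.52 and −0.80 on 1 probe set in WT and D6-deficient skin (adjusted p = 0.000418 and 0.0419), and the other 2 were at −1.25 and −0.94 in WT skin (adjusted p = 0.000416 and 0.0016) and at −0.48 and −0.19 in D6-deficient skin (adjusted p = 0.14 and 0.522). Ccrl1, an atypical chemokine receptor, was at −1.43 and −1.39 on 1 probe set (adjusted p = 0.0022 and 0.00255), while the other 2 were at −0.16 and −0.33 in WT and 0.49 and 0.31 in D6-deficient skin, so its probe sets disagreed. On the same day between the genotypes 3 of the 52 were called on day 0, 0 on day 1, 6 on day 2, 3 on day 4 and 1 on day 6, at background shares given above. Over all days 6 were called, 2 higher and 4 lower in D6-deficient skin, where 5.52% of all tested probe sets were called. These counts between the genotypes can include probe sets of Ccbp2, the gene that D6-deficient mice lack. Among the calls over all days were Ccl21a, at −0.82 (SE 0.10, adjusted p = 1.44e-05), and 1 probe set of Itga9, at 1.04 (SE 0.08, adjusted p = 1.34e-08). The other 2 of Itga9 were at 0.13 and 0.08 (adjusted p = 0.176 and 0.575). Itga9 lies on the same chromosome as Ccbp2. Relative to day 0 the only call of the 52 was Sox18, a transcription factor that acts upstream of Prox1, higher in D6-deficient skin on day 2 by 1.00 (SE 0.22, adjusted p = 0.00663), where 5.40% of all tested probe sets were called, so that 1 of 52 lay below the background.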

How the data were processed

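Affymetrix mouse genome arrays of 30 mice, 3 for each genotype and day, were analysed. Per the methods and labels, the authors computed RMA values (background correction, quantile normalization and probe summarization) in GeneSpring GX, and the deposited intensities are linear, before the base-line transformation the methods describe. Quantile normalization gives the probes of all arrays the same distribution, so only changes relative to the other genes of an array are seen. The log2 of the intensities was taken, 64 controls and the 20% of probe sets with the lowest mean were left out, and a single limma model over the 30 arrays gave every group its own mean, with Benjamini-Hochberg adjustment over the 36029 probe sets of each contrast. Calls were made at an adjusted p under 0.05, and the methods give t-tests with a 3-fold threshold. The script was tested on simulated data.

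The members, the wider gene list and the marker lists were chosen with earlier results of these data known. Named were every member probe set, the 3 genes most like each member (1 of them is not reported here), and of the wider list at most 3 called genes per direction and comparison. Promoter windows and the chromosome of Itga9 come from RefSeq (GRCm38.p6). Alternatives were the filter, median centring, fold threshold, t-test, arrays fitted, replicate block, hybridization sets, averaging of probe sets and leaving out each array. A deposited sample sheet, which holds no expression values, served to place 1 column of WT day 6 whose header leaves out a letter of the sample title. R 4.3.3, limma 3.58.1, Python 3.11.15 and matplotlib 3.10.9 were used.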

Additional observations from a re-analysis of the deposited data

Results flagged for a closer look

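On day 2 after TPA, the change from day 0 differed between the genotypes for 5 of the 16 tested probe sets of lymphatic genes, by the interaction of genotype and day in the limma model (background 5.40% of all tested probe sets). For Figf the change was higher in D6-deficient skin by 1.24 on the brightest probe set, with the 3 D6-deficient arrays of day 2 above their day 0 arrays and WT arrays of both days overlapping. The other probe sets of Figf differed by 1.47 and 1.51, for Stab2 the difference was 0.83, and for Vegfc on 1419417_at it was 0.88. Adjusted p values ran from 0.00312 to 0.0392. The D6-deficient controls of Figf lay under the WT controls, which adds to each of its values, and the part of the macrophage markers, of which 5 of 10 moved the same way, was not tested.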

How the results depend on the processing

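Against day 0 the members gave 30 calls of 64 in WT and 22 of 64 in D6-deficient skin, between the genotypes 3 of 80 on the same day, 5 of 64 relative to day 0 and 5 of 16 over all days. With a change of more than 3-fold required as well these counts became 5, 6, 0, 0 and 0, and with the methods' t-test at an unadjusted p under 0.05 and more than 3-fold also 5, 6, 0, 0 and 0. With the methods' t-test and Benjamini-Hochberg adjusted p values the count in WT skin was 12, on the same day 0, relative to day 0 3 and over all days 0. Over all days both uses of this t-test ignored the day, and relative to day 0 they left out the error of the day 0 means. With the mean of a gene's probe sets, which leaves 9 values in place of 16, the count was 17 in WT skin, 14 in D6-deficient skin and 2 relative to day 0. On the same day it was 5 with each array centred on its median and 6 with only the arrays of the contrast. Leaving out each array in turn gave 19 to 32 calls in WT skin (19 without WT day 0 replicate 3), 18 to 26 in D6-deficient skin, 0 to 8 on the same day (0 without D6-deficient day 2 replicate 3), 2 to 7 relative to day 0 (2 without WT day 2 replicate 1) and 4 to 6 over all days. The cause was not tested. Fitting only the arrays of the contrast is the reported fit for the mean over all days, so it was not run there.

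Replicate numbers are shared between groups but do not pair the arrays: deviations from the group means correlated at −0.35 to 0.48 between arrays of the same number and at −0.45 to 0.56 between arrays of different numbers. With a replicate block the 5 counts were 29, 22, 2, 5 and 5, and 2 probe set results lost their call, both of 1438954_x_at of Figf (WT day 2 and the genotypes on day 0). Without the filter on low values the counts were 29, 22, 2, 5 and 4, with the hybridization sets as a covariate 29, 22, 2, 5 and 5, and with probe sets kept by their highest group mean 26, 20, 4, 4 and 5. Of the 72 differences of lymphatic probe sets run under these alternatives and without each array, none changed its sign. Only 66 were run with only the arrays of the contrast, and 64 with probe sets kept by their highest group mean. The 72 were chosen in the same data because they were called or large, so a change of sign was unlikely from the start. Of the 65 called differences, 38 stayed called without each array in turn. Precision is limited by the 3 arrays of a group (exact permutation of 3 against 3 arrays cannot reach a p under 0.1), and probe sets as low as those of Prox1 and Stab2 lie near the floor of the array.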

Other observations

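Of 12 markers of blood endothelium, 5 rose and 0 fell on day 2 in D6-deficient skin (background 17.5% and 20.6%). On day 4 there 7 rose and 2 fell (18.8% and 22.4%), the medians of these days being 0.34 and 0.64. In the same skin 1 rose and 5 fell on day 1 (18.2% and 18.1%) and 0 rose and 4 fell on day 6 (16.0% and 15.7%). In WT skin 1, 0, 4 and 0 rose (background 11.4%, 11.0%, 17.3% and 10.2%) at days 1, 2, 4 and 6. At these days 2, 3, 4 and 2 fell (12.7%, 15.0%, 21.8% and 11.9%). Several of these shares of the 12, such as those that fell on days 1 and 6 in WT skin, lay near the background. Between the genotypes on the same day limma called 1 of 12 on day 2 (background 4.45%), higher in D6-deficient skin, and no other. Of the 3 adipocyte markers tested, 2 fell on day 4 in WT skin (background 21.8%), and none was called on another day, in D6-deficient skin or between the genotypes.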
